A study of Mus musculus with 24 samples.

Results

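The comparison described here is the loss of Vhl in early B cells of mouse bone marrow. It uses the libraries of 1 sort that holds pro-B and pre-B cells together (proBpreB in the labels) and sets the VHL flox/flox mice against the VHL flox/WT mice, over all measured genes. Those are 8 of the 24 libraries of the study, 4 from flox/flox and 4 from flox/WT mice, and each library came from a different mouse. All 8 mice carried MB1 Cre on 1 allele (MB1 Cre +/WT), so the controls held the recombinase and 1 floxed Vhl allele too. The other 16 libraries came from immature and mature B cells of the same mice (by the host labels) and enter here only where the genotype effect is compared between populations. No source used here gives the age of the mice, the surface markers of the sort or the position of the lox sites in Vhl.

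Vhl encodes the substrate-binding subunit of a ubiquitin ligase that marks the alpha subunits of hypoxia-inducible factor (HIF) for destruction. Prolyl hydroxylases (Egln1, Egln2 and Egln3) use oxygen to hydroxylate HIF-alpha, and only the hydroxylated protein is bound by VHL, so cells without VHL keep HIF active at normal oxygen. HIF binds short DNA words in promoters and enhancers and raises genes of glucose uptake, glycolysis, lactate export, mitochondrial adaptation, blood vessel growth and its own feedback hydroxylases. Mb1-Cre was made by inserting the recombinase into Cd79a, a gene of the B cell receptor that is first used in pro-B cells, so recombination starts in the lineage at about the stage sorted here, and every mouse keeps 1 intact Cd79a copy. Pro-B and pre-B cells rearrange the immunoglobulin genes, divide in response to interleukin 7 and carry the surrogate light chain, and they lose these features as they become immature B cells.

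The 8 libraries held between 9367955 and 11741511 counts and between 14552 and 15227 detected genes. A limit of 3 counts in a library corresponded to 0.231 to 0.281 CPM (read counts scaled to the library's total and composition). Genes of the labelled stage were present. Igll1, a surrogate light chain part, averaged 463 ± 247 CPM in flox/WT proBpreB libraries against 5.03 CPM in immature and 6.90 CPM in mature flox/WT libraries, and Dntt, the polymerase that adds bases at gene joints, averaged 361.1 ± 171, 5.03 and 7.38 CPM in the same order (SD over 4 mice for the first value of each). The first principal component of the 2000 most variable genes held 46.6% of their variance and separated all flox/flox from all flox/WT libraries. The second held 18.8% and set replicate 1 of each genotype apart. These were the 2 libraries with Y-linked transcripts (Ddx3y at 89.3 and 81.4 CPM, Xist at 0.0938 and 0.0920 CPM), while Xist lay between 166 and 300.1 CPM in the other 6, so sex was balanced between the genotypes. Values of single libraries are given below in the order of replicates 1 to 4, which are also called mouse 1 to 4, and flox/WT mice are the controls. A number alone in parentheses after a gene is its log2 change, flox/flox over flox/WT. A gene was called where its adjusted p (edgeR, Benjamini-Hochberg over 12850 tested genes) was below 0.05.

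Vhl itself was lower in every flox/flox library than in any flox/WT library. It lies on chromosome 6 at 113623994 to 113631634 (GRCm38) and measured 7.97, 15.1, 9.26 and 8.25 CPM in flox/flox mice and 25.8, 24.7, 23.0 and 27.9 CPM in flox/WT mice. The groups did not overlap, and replicate 2 was the highest of the flox/flox libraries. The log2 change was -1.32 (SE 0.23, adjusted p = 2.47e-04), and a two-sided exact permutation test over the 70 assignments gave p = 0.0286, the smallest that 4 against 4 libraries allow. The flox/flox mean was 40.1% of the flox/WT mean. The counts cover the entire transcript, deleted and kept exons alike. In a bulk sort, fewer cells that express a gene and less RNA per cell cannot be told apart, here and for every gene below.

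Of 12850 tested genes, 434 were higher (3.38%) and 354 lower (2.75%) in flox/flox proBpreB cells. The 2 directions differed in size. Among the called genes, 101 rose and 12 fell by more than 2 on the log2 scale, and the median change was 0.96 for the rises and -0.58 for the falls, against -0.00 over all tested genes. The 2 groups did not overlap in CPM for 1985 genes (15.4%), and for 715 of the 788 called genes. The number of falls depended on single libraries: it was 221 and 213 without flox/flox mouse 1 and 4, and 184 without control mouse 4. The rises numbered between 312 and 459 when any 1 of the 8 was left out.

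**Figure D1:**
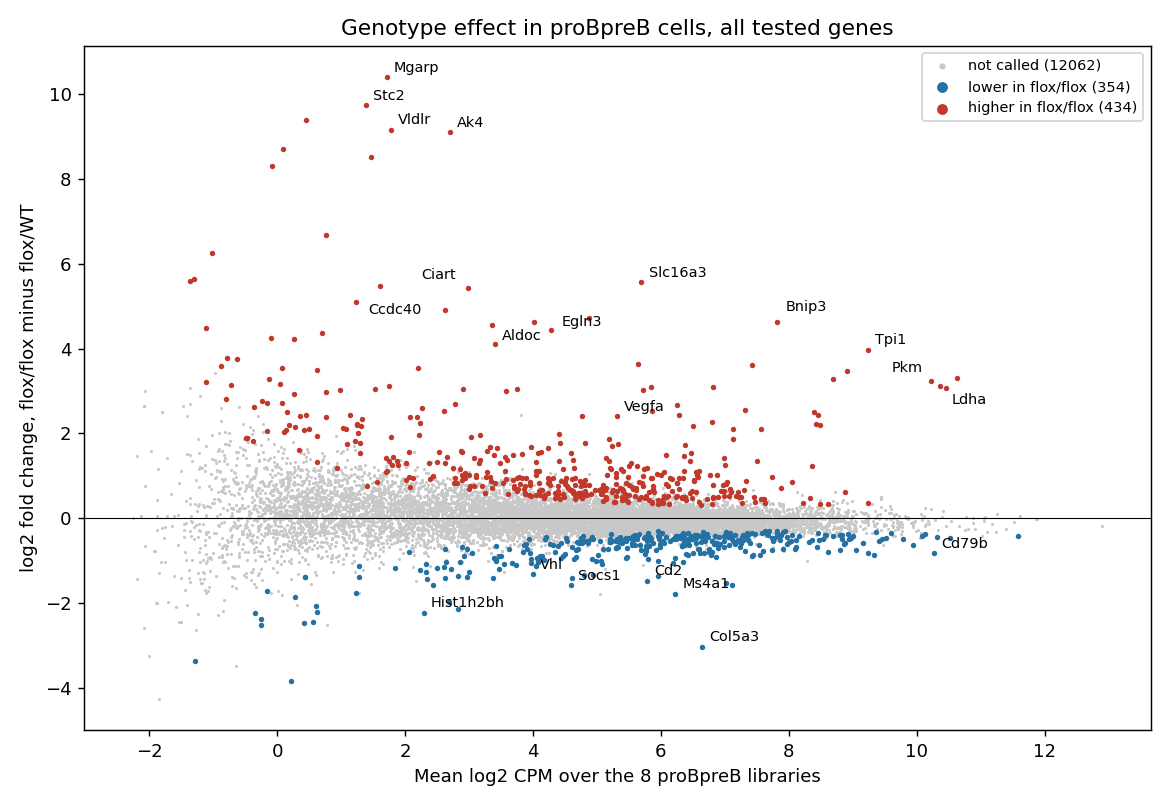
Log2 fold change between flox/flox and flox/WT proBpreB cells (y axis) against the mean log2 CPM over the 8 libraries (x axis), 1 point per tested gene, with 434 higher genes in red, 354 lower genes in blue and uncalled genes in grey. The rises reach far larger sizes than the falls. Examples are Ak4 at 9.10 and Slc16a3 at 5.57 among the rises and Col5a3 at -3.03 among the falls. Mgarp, Stc2 and Vldlr, almost absent from the controls, also lie among the largest rises.

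The 6 largest rises whose RefSeq promoter holds a core hypoxia response element, the word ACGTG or GCGTG on either strand, are shown with 250 bases before and 50 after the annotated start (RefSeq, GRCm38.p6; the strand follows the coordinates). They are printed because these genes moved most among well expressed ones, and capitals mark each match. Ak4 is a mitochondrial adenylate kinase, Slc16a3 the lactate and proton exporter MCT4, Ciart a repressor of the circadian clock, Ccdc40 a protein of cilia, Ankrd37 an ankyrin repeat protein and Bnip3 a mitophagy receptor. The regions are chr4:101419039-101419338 (+) for Ak4, chr11:120948817-120949116 (+) for Slc16a3, chr3:95882179-95882478 (-) for Ciart, chr11:119228322-119228621 (+) for Ccdc40, chr8:45999801-46000100 (-) for Ankrd37 and chr7:138909457-138909756 (-) for Bnip3.
Ak4: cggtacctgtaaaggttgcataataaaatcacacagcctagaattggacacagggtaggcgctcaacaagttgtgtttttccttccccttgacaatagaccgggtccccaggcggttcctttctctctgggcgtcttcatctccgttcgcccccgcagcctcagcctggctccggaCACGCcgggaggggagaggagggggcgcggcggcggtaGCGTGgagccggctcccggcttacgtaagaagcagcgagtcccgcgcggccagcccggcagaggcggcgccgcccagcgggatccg
Slc16a3: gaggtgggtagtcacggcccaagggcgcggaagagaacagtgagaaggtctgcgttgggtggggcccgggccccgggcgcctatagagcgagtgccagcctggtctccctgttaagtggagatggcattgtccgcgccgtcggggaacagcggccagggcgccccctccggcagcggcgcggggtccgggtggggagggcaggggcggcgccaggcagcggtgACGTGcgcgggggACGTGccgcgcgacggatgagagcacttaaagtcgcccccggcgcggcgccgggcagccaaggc
Ciart: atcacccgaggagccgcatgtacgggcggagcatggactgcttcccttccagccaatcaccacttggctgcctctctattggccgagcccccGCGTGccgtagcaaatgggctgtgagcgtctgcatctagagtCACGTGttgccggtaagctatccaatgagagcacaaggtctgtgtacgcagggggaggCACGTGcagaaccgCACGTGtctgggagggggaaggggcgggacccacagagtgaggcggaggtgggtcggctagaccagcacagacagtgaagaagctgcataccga
Ccdc40: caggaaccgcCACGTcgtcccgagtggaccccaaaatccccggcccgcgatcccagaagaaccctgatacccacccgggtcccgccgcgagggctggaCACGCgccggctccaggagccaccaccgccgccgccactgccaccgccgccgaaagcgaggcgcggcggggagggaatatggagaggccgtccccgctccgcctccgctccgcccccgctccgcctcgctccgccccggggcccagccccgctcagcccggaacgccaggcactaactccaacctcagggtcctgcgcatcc
Ankrd37: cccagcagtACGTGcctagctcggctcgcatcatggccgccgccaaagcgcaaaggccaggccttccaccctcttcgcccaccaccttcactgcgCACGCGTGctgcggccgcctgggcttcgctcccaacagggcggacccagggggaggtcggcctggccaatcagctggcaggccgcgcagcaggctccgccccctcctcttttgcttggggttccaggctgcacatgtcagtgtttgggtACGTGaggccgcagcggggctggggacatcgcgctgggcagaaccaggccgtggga
Bnip3: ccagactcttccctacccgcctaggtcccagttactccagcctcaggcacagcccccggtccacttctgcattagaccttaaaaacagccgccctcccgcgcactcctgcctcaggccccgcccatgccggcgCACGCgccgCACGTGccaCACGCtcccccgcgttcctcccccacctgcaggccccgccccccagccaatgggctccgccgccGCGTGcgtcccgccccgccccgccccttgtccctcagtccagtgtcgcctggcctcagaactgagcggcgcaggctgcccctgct
Ciart held 7 matches, of which 6 came from 3 copies of CACGTG, a word that reads ACGTG on both strands and is also the E-box of clock and MYC family factors. Bnip3 held 5 matches with 1 such word, Ankrd37 held 4, and Ak4, Slc16a3 and Ccdc40 held 2 each. A match is a description of letters and no measured binding site.

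Over all genes with a promoter in the RefSeq table, 230 of 321 higher genes (71.7%), 138 of 258 lower genes (53.5%) and 6077 of 9706 tested genes (62.6%) held ACGTG or GCGTG. With ACGTG alone the shares were 46.1% of higher, 17.8% of lower and 25.8% of tested genes. Only the first promoter listed for each gene was scanned, so other starts of a gene were not covered. Over the first promoters of all 27025 genes listed, 43.8% held either word and 19.7% held ACGTG. Among the 15 largest rises by the rule above, Tpi1 and Aldoa held neither word in the window scanned. No promoter entry was found for Plod2 and Prelid2.

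The printed genes other than Bnip3 were close to silent or low in the controls. Ak4 measured 116, 104, 113 and 128 CPM in flox/flox libraries and 0.460, 0.231, 0.0921 and 0 CPM in flox/WT libraries (9.10, SE 0.30, adjusted p = 1.88e-19). Slc16a3 measured 383, 343, 313 and 379.6 against 6.72, 5.47, 8.57 and 9.26 CPM (5.57, SE 0.17, adjusted p = 2.90e-20). Every flox/flox library stood far above every control in these 2 genes, and the 4 mice of a genotype lay close together. Bnip3, which tags mitochondria for removal, measured 1067, 1154, 1100.0 and 1185 against 39.2, 42.0, 46.3 and 53.3 CPM (4.64, SE 0.13, adjusted p = 1.57e-20). Ciart measured 52.1, 49.0, 54.8 and 46.2 against 2.02, 0.924, 1.38 and 0.359 CPM, Ankrd37 154, 159.6, 149 and 140.0 against 3.68, 5.24, 5.71 and 8.09 CPM and Ccdc40 40.3, 25.9, 26.2 and 34.8 against 0.644, 0.847, 1.84 and 0.899 CPM. Their log2 changes were 5.43, 4.73 and 4.90. Prelid2, of a family of mitochondrial lipid carriers, measured 34.0, 46.2, 44.4 and 45.9 against 2.30, 2.003, 3.04 and 2.52 CPM (4.11, adjusted p = 1.14e-15). In these 4 genes no flox/flox library reached into the control range.

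Within the HIF system the feedback genes rose and the core subunits did not. Of 14 tested genes 3 rose and 1, Vhl, fell (median log2 change 0.04). Egln3, an oxygen-dependent prolyl hydroxylase of HIF-alpha, measured 105, 85.7, 79.2 and 85.9 CPM in flox/flox and 3.59, 4.93, 3.69 and 3.95 CPM in flox/WT libraries (4.45, SE 0.15, adjusted p = 2.93e-19). Egln1, the main prolyl hydroxylase in most cells, measured 261, 245, 227 and 253 against 64.7, 60.3, 42.3 and 36.6 CPM (2.27, adjusted p = 5.31e-13). Hif3a, a HIF-alpha paralog whose short forms restrain HIF, was low throughout, at 1.5, 1.59, 1.11 and 1.19 against 0.368, 0, 0 and 0 CPM (3.75, adjusted p = 0.00488), and with so few control counts the size of its change depends on the prior count of the fit. Egln2, the third hydroxylase, measured 55.8 ± 4.91 and 57.9 ± 5.99 CPM (-0.05, adjusted p = 0.871). The transcripts of Hif1a (0.10), its partner Arnt (0.07) and the asparagine hydroxylase Hif1an (0.01) did not pass the test, and Epas1, which encodes HIF-2-alpha, was near the detection limit at 0.640 ± 0.123 and 0.333 ± 0.397 CPM. HIF-alpha protein, which VHL controls, was not measured.

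Genes rose along the route from glucose entry to lactate export. Of 7 tested genes of glucose entry 4 rose and 1 fell (median 1.18), and of 18 tested glycolysis genes 13 rose and 0 fell (median 2.33), against 3.38% and 2.75% of all genes. The transporter Slc2a1 (GLUT1) measured 158, 149, 134 and 162 CPM in flox/flox and 22.1, 18.6, 14.2 and 18.9 CPM in flox/WT libraries (3.03, SE 0.14, adjusted p = 1.42e-16). Hexokinase 2 (Hk2) measured 32.8, 27.8, 34.5 and 39.3 against 4.23, 6.01, 2.58 and 3.86 CPM (2.99, adjusted p = 7.56e-12). Hexokinase 1 (Hk1) and the transporter Slc2a3 (GLUT3) started higher and rose less, by 1.54 and 1.18. Slc2a8, an intracellular transporter, went the other way at -0.64 (adjusted p = 0.0308; not called without any 1 flox/flox mouse or control mouse 2 or 4, where adjusted p reached 0.130).

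At the committed step, the liver-type phosphofructokinase Pfkl measured 696, 570.2, 544 and 659 against 70.7, 63.1, 32.3 and 36.3 CPM (3.61, SE 0.18, adjusted p = 1.36e-15), the platelet type Pfkp rose by 2.55, and the muscle type Pfkm by 0.77 (adjusted p = 0.0355; not called without flox/flox mouse 3 or 4 or control mouse 1, 3 or 4, where adjusted p reached 0.158). Among the enzymes that set the activator of this step, Pfkfb3 rose by 1.48, while Pfkfb1 (0.05), Pfkfb2 (-0.13) and Pfkfb4 (-0.12) did not pass. The enzymes below that step were abundant. Aldoa, an aldolase, measured 1791, 1571, 1461 and 1606 against 159, 142, 129 and 153 CPM (3.46, SE 0.12, adjusted p = 2.93e-19), and triosephosphate isomerase (Tpi1) measured 2635, 2264, 2168 and 2534 against 187, 167, 130.1 and 127 CPM (3.97, SE 0.14). The aldolase paralog Aldoc, which is typical of brain, rose by 4.56 but reached only 48.5 ± 4.59 CPM. Pgk1, Pkm, Eno1, Pgam1, Gpi1 and Gapdh rose by 3.28, 3.25, 3.12, 2.43, 2.22 and 2.10. Eno1 and Gapdh have near-identical copies in the genome, so their counts are uncertain. Bpgm, which makes bisphosphoglycerate from a glycolytic intermediate, measured -0.54 and did not pass.

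At the pyruvate branch, lactate genes rose, and the pyruvate carrier fell. Ldha, the lactate dehydrogenase chain that favours lactate, measured 4387, 3854, 3877 and 4363 against 535, 438, 536 and 441 CPM (3.08, SE 0.11, adjusted p = 1.20e-18), and Bsg, the chaperone of lactate transporters, rose by 0.96. Slc16a1 (MCT1), the other main lactate carrier, stood at 373.1 ± 30.9 and 373.5 ± 86.9 CPM (-0.00, adjusted p = 0.997). Pdk1, which switches off pyruvate dehydrogenase, measured 284, 360.7, 331 and 339.5 against 40.1, 32.9, 46.5 and 34.2 CPM (3.10, adjusted p = 1.66e-14), and Pdk3 rose by 1.05, while Pdk2 did not pass (0.35). Mpc2, a subunit of the mitochondrial pyruvate carrier, measured 41.0, 49.4, 45.4 and 40.6 CPM in flox/flox and 64.6, 82.4, 103 and 104 CPM in flox/WT libraries (-1.003, SE 0.14, adjusted p = 8.27e-06). Its partner Mpc1 measured -0.38 (adjusted p = 0.143). The pyruvate dehydrogenase subunits Pdha1, Pdhb, Dlat and Dld lay between -0.14 and 0.10 on the log2 scale and 0 of the 4 passed. In all, 5 of the 18 tested lactate and pyruvate genes rose and 1 fell.

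**Figure D2:**
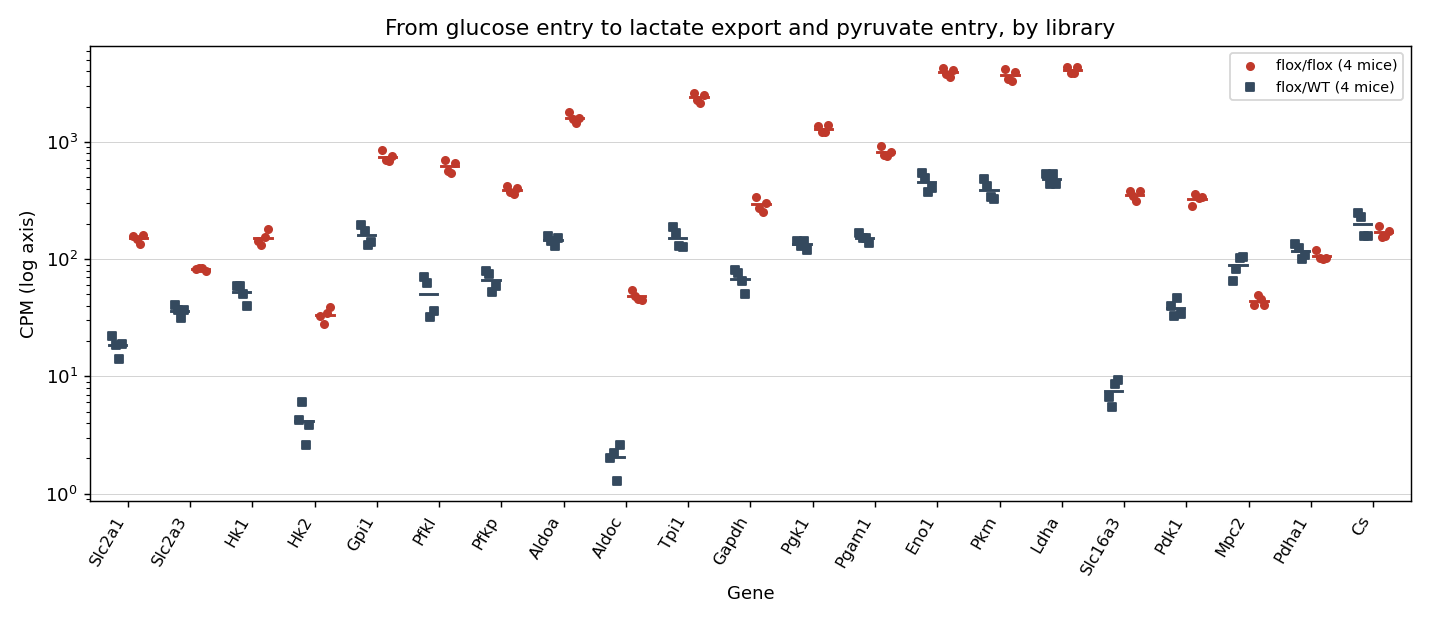
CPM per library on a log axis for genes ordered from glucose entry to lactate export and the mitochondrial fate of pyruvate, red circles for the 4 flox/flox and dark squares for the 4 flox/WT mice, with a bar at each group mean. Every gene from Slc2a1 to Pdk1 is separated upward, Mpc2 is separated downward, and Pdha1 and Cs overlap.

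Mitochondrial genes split by role. Of 12 tested genes of the hypoxic mitochondria list 7 rose and 0 fell (median 1.10), of 12 mitophagy genes 2 rose, of 20 citric acid cycle genes 1 rose, and of 40 oxidative phosphorylation genes 3 fell. Mgarp, a protein of the outer membrane, had 2065 counts in the 4 flox/flox libraries and 1 count in the 4 flox/WT libraries, a ratio of 2167 (95% binomial interval 388 to 85631, counting error only). Cox4i2, the hypoxic isoform of a cytochrome oxidase subunit, measured 6.94, 4.69, 4.91 and 6.24 against 0.0920, 0.231, 0.276 and 0.449 CPM (4.37, SE 0.57, adjusted p = 5.08e-06), while the standard isoform Cox4i1 measured 294 ± 9.22 against 371 ± 61.0 CPM (-0.34, adjusted p = 0.112). Cox7a1, another isoform of an oxidase subunit and one of the 15 largest rises, measured 14.7, 15.5, 12.3 and 16.8 against 1.10, 0.770, 1.84 and 1.35 CPM (3.55, adjusted p = 1.06e-08). Ndufa4l2, which damps complex I in hypoxia, had 47 against 3 counts (ratio 16.4, interval 5.29 to 82.6), and its paralog Ndufa4, a subunit of the oxidase, moved the other way from 259 ± 89.1 to 142 ± 5.31 CPM (-0.87, SE 0.15, adjusted p = 2.71e-04). Higd1a, Lonp1 (the protease that removes Cox4i1) and Mxi1 (a MYC antagonist) rose by 2.18, 1.10 and 1.09. Mxi1 is also counted among the rises of the G1 control list below. The mitophagy receptor Bnip3l rose by 2.21 beside Bnip3, while Pink1 (0.11) and Fundc1 (-0.12) did not pass.

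Of 20 citric acid cycle genes 1 rose and of 40 oxidative phosphorylation genes 3 fell, against 3.38% higher and 2.75% lower over all genes. In the citric acid cycle list the gene that rose was Pcx, pyruvate carboxylase, which feeds oxaloacetate into the cycle, at 19.8, 21.4, 17.9 and 26.7 against 9.57, 6.16, 6.63 and 8.36 CPM (1.48, SE 0.27, adjusted p = 4.39e-04). The list had a median of -0.10 with 14 of 20 changes negative, and citrate synthase (Cs) measured -0.22 (adjusted p = 0.357). Its falls numbered 0 with all libraries in edgeR, 1 without control mouse 1 or 2, 3 with DESeq2 and 2 with limma-voom. Of the 40 nuclear oxidative phosphorylation genes 36 had a negative change, with a median of -0.23, and Ndufa4, Ndufb8 (-0.52) and Uqcrq (-0.52) passed. Falls numbered 1 without flox/flox mouse 1, 3 or 4 or control mouse 3 or 4 and 5 without control mouse 2. Of 30 mitochondrial ribosome genes 27 were negative and 0 passed edgeR's test (median -0.18). Among falls the count was 2 without control mouse 1 or 2. At an unadjusted p below 0.05 there were 0 higher and 4 lower, and DESeq2 called 0 higher and 1 lower and limma-voom 0 and 0. Over all tested genes the median was -0.00.

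Glycogen genes rose on both the building and the breaking side. Of 14 tested genes 6 rose and 0 fell (median 0.28). Pgm2, a phosphoglucomutase, measured 167, 177, 170.3 and 190.2 against 15.6, 15.3, 14.3 and 11.2 CPM (3.64, SE 0.14, adjusted p = 2.12e-18). Glycogen synthase (Gys1) and the branching enzyme (Gbe1) rose by 1.19 and 1.17. Ppp1r3b, a targeting subunit that activates the synthase, rose by 1.69 and liver phosphorylase (Pygl) by 0.70. Ppp1r3g, another targeting subunit, was outside the list and was picked out after its values were seen. It had 381 counts in flox/flox and 0 in flox/WT libraries, at least 133-fold higher against 3 counts over the group.

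Further enzymes that use oxygen as a substrate rose as well. Of 7 tested collagen hydroxylases 5 rose and 0 fell (median 0.77). Plod2, a lysyl hydroxylase, measured 82.7, 76.9, 75.2 and 79.5 against 2.85, 3.70, 3.50 and 2.52 CPM (4.63, SE 0.18, adjusted p = 3.78e-18), and the prolyl hydroxylases P4ha1 and P4ha2 rose by 3.09 and 6.67, P4ha2 from only 0.0835 ± 0.0969 CPM, so that the size of its change also depends on the prior count. Of 16 histone demethylases 6 rose and 0 fell (median 0.09). The hydroxylase and demethylase relative Jmjd6 measured 157, 141, 153 and 152 against 45.4, 44.9, 47.5 and 44.1 CPM (1.73, adjusted p = 2.00e-11), and Kdm3a, which acts on methylated lysine 9 of histone H3, measured 269, 297, 298 and 295 against 113, 116, 101 and 122 CPM (1.36, adjusted p = 3.05e-08). Kdm6b and Kdm5b rose by 1.37 and 1.27. The smaller rises of Kdm2a (0.49, adjusted p = 0.0194; not called without flox/flox mouse 1, 3 or 4 or control mouse 3 or 4, where adjusted p reached 0.0839) and Kdm4b (0.47, adjusted p = 0.0115; not called without control mouse 3, where adjusted p was 0.0535) were less stable.

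Among secreted signals, Mif and Vegfa rose at substantial levels. Vegfa, the main growth factor of blood vessels, measured 104, 87.0, 87.3 and 88.4 CPM in flox/flox and 17.8, 15.4, 23.3 and 13.0 CPM in flox/WT libraries (2.40, SE 0.22, adjusted p = 8.85e-09). Mif, a cytokine of inflammation that signals through CD74, measured 883, 827, 723 and 808 against 165, 134, 150.2 and 119 CPM (2.51, adjusted p = 1.85e-14); it has pseudogene copies, so its counts are uncertain. Pgf and Adm also passed, at means of 2.19 ± 0.550 and 2.60 ± 0.568 CPM in flox/flox mice (log2 changes 2.14 and 1.18). The list had 4 of 11 tested genes higher and 0 lower (median 0.47). The number of rises was 2 without flox/flox mouse 2 or control mouse 2. Pgf was not called without any 1 flox/flox mouse or control mouse 1, 2 or 4, where adjusted p reached 0.153, and Adm was not called without flox/flox mouse 2 or control mouse 2, where adjusted p reached 0.0805.

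Of 13 lipid genes 3 rose and 1 fell (median -0.00), against 3.38% higher and 2.75% lower over all genes. Vldlr, a lipoprotein receptor, had 1969 counts against 3 (ratio 689, interval 235 to 3343). Hilpda, which blocks lipid breakdown in hypoxic cells, and the fatty acid carrier Fabp5 rose by 1.11 and 0.79. The fatty acid receptor Cd36 measured 7.12, 14.8, 11.1 and 11.1 against 18.3, 17.1, 33.6 and 23.5 CPM (-1.06, adjusted p = 0.0115; not called without flox/flox mouse 1 or control mouse 3, where adjusted p reached 0.0605). The droplet coat gene Plin2 measured 0.19 and did not pass (adjusted p = 0.524).

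Repressors of the clock and 1 inhibitor of mTOR, Ddit4, rose beside Ciart. Of 19 tested genes 6 rose and 0 fell (median 0.23). Ddit4 (REDD1), which restrains mTORC1, measured 53.2, 71.0, 65.8 and 64.7 against 8.10, 10.1, 18.0 and 12.0 CPM (2.40, SE 0.29, adjusted p = 2.33e-06). Bhlhe40, Nr1d1 and Per2, repressors of the clock, rose by 1.65, 1.31 and 0.96, and Tef by 0.54 (not called without control mouse 3, where adjusted p was 0.0581). The activators Arntl (0.13) and Clock (0.10) did not pass, nor did Sesn1, Sesn2 and Sesn3, which also restrain mTORC1 (-0.20, -0.27 and -0.25).

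Of 27 other tested hypoxia responders 13 rose and 2 fell (median 0.67), against 3.38% higher and 2.75% lower over all genes. Stc2, a secreted glycoprotein, had 1310 counts against 1 (ratio 1375, interval 246 to 54338). Mt1, a metallothionein, measured 30.8, 39.1, 33.8 and 49.4 against 5.06, 4.85, 5.25 and 3.42 CPM (3.04, adjusted p = 7.32e-08). Ero1l, the oxidase of disulfide bond formation, measured 168, 184, 187 and 186 against 36.3, 35.98, 29.5 and 32.9 CPM (2.43, adjusted p = 1.34e-14). Of 20 genes of the folding machinery of the endoplasmic reticulum 0 rose and 1, Herpud1, fell (-0.47, adjusted p = 0.00964; not called without flox/flox mouse 1, where adjusted p was 0.0544), and 1 rose without control mouse 1. Fam162a, Galk1, Zfp395 and Ndrg1 rose by 2.67, 1.88, 1.54 and 1.41. The 2 genes that fell were Btg1, an antiproliferative factor (-0.48, adjusted p = 0.00156), and S100a10 (-0.63, adjusted p = 4.08e-04). Cxcr4, the receptor that holds B cell precursors in the marrow, measured 68.5, 80.7, 76.0 and 80.4 against 89.1, 83.5, 137 and 133 CPM and did not pass (-0.53, adjusted p = 0.269). The 6 tested genes of acid and ion handling had 0 calls in edgeR (2 higher and 0 lower at an unadjusted p below 0.05; DESeq2 called 1 higher and 0 lower and limma-voom 0 and 0), with Car9 at 3.39 ± 0.604 and 2.46 ± 0.674 CPM (0.47, adjusted p = 0.640).

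In all, 14 called genes, Mgarp, Vldlr, Stc2, Ndufa4l2 and Ppp1r3g among them, were almost absent from the controls, with at most 3 counts in the 4 flox/WT libraries together. Those named here were picked after their values were seen. Colgalt2, a collagen galactosyltransferase, had 236 counts in flox/flox and 0 in flox/WT libraries, at least 82.6-fold higher. Rgs11, a regulator of G protein signalling, had 1259 against 3 counts (ratio 440, interval 150.3 to 2138). Artn, a ligand of the RET receptor complex, had 34 against 1 counts (ratio 35.7, interval 5.99 to 1450.2), and Ret itself is among the falls below. These bounds and intervals cover counting error only.

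Of 13 one-carbon and serine genes 2 rose and 0 fell (median 0.21), against 3.38% higher and 2.75% lower over all genes. Mthfd1l, the mitochondrial step that releases formate, measured 140.4, 123, 136 and 155 against 59.8, 59.7, 43.5 and 36.9 CPM (1.47, SE 0.14, adjusted p = 9.72e-09). Shmt2 rose by 0.50 (not called without flox/flox mouse 1 or 4 or control mouse 3 or 4, where adjusted p reached 0.209). Of 17 amino acid stress genes 2 rose, Trib3, a pseudokinase induced by ATF4, by 1.98 (adjusted p = 2.25e-04) and the translation repressor Eif4ebp1 by 0.48 (not called without control mouse 4, where adjusted p was 0.0678). Their usual companions Asns (0.38), Ddit3 (-0.17) and Atf4 (-0.29) did not pass.

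**Figure D3:**
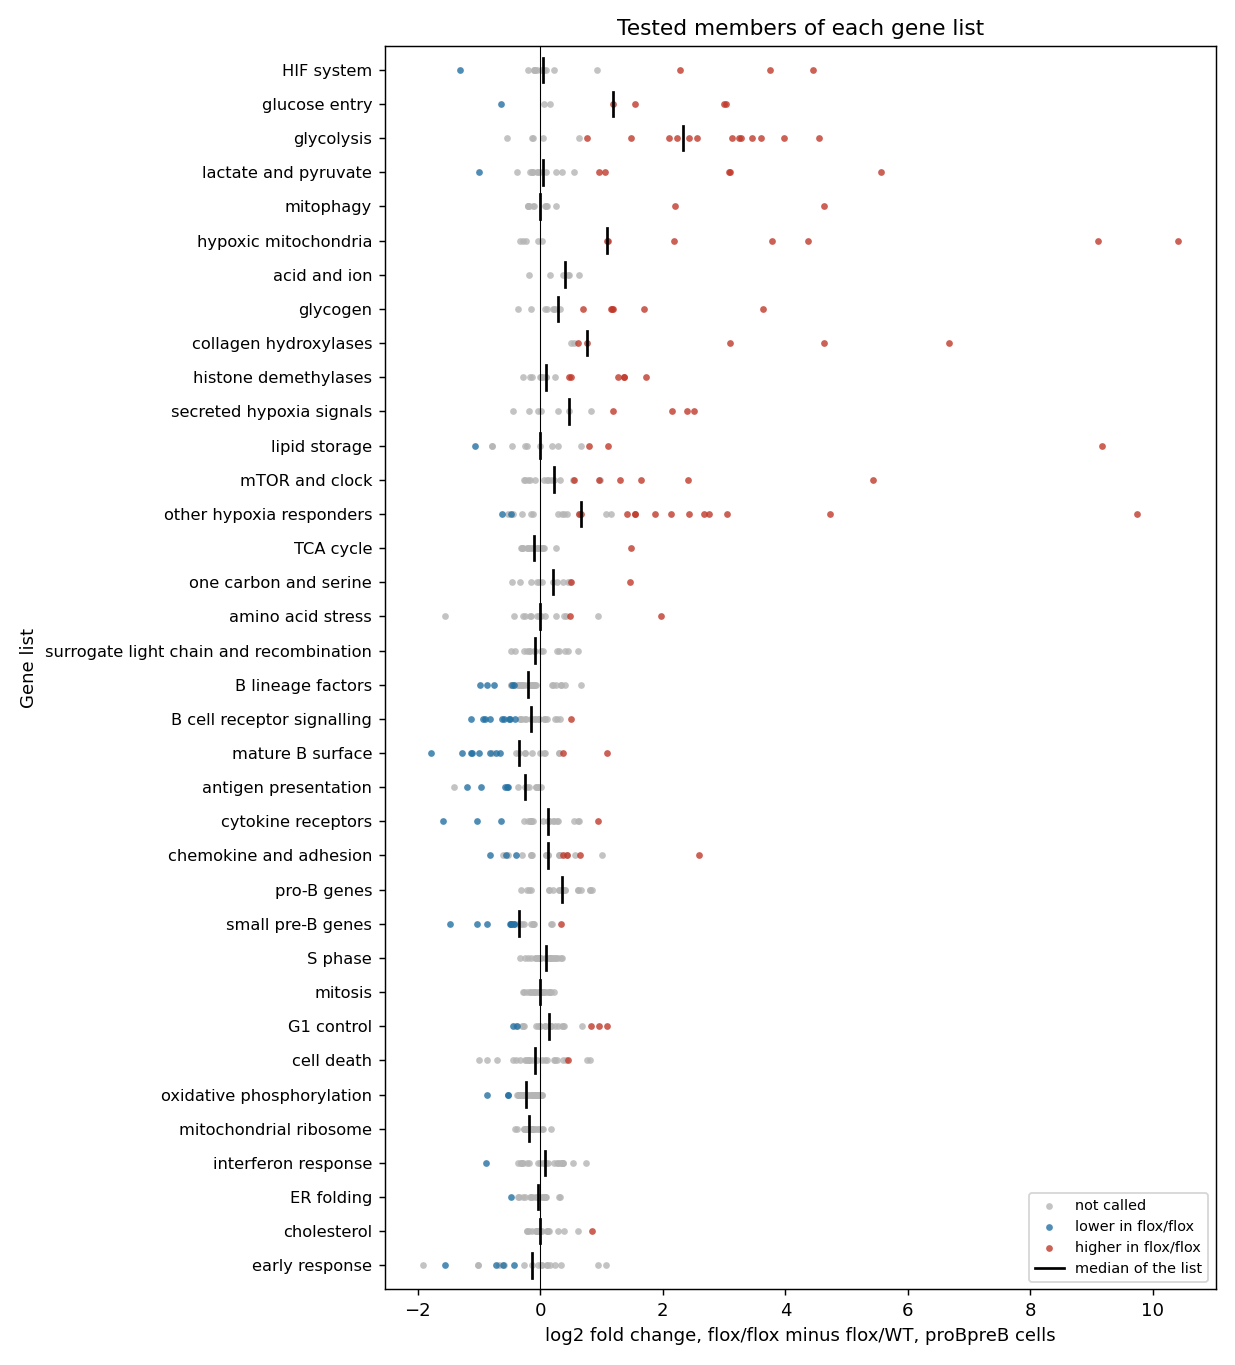
Log2 fold change (x axis) of every tested member of the 36 gene lists other than the marker lists (y axis), red for higher, blue for lower and grey for uncalled genes, with a black bar at each list's median. Metabolic and hypoxia lists extend to the right, the B cell receptor, mature B surface and antigen presentation lists extend to the left, and the S phase and mitosis lists hold no called gene.

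The largest called fall, once genes under 2 in mean log2 CPM or with overlapping genotypes are set aside, was in a collagen gene. Col5a3, a fibrillar collagen chain on chromosome 9 at 20770050 to 20815117, measured 29.1, 43.8, 37.9 and 33.5 CPM in flox/flox and 179, 228, 307 and 463 CPM in flox/WT libraries (-3.03, SE 0.32, adjusted p = 7.83e-07). Its lowest control stood above its highest flox/flox library, and the controls were spread more widely, with replicate 4 highest. Pde4c, a cyclic AMP phosphodiesterase, measured 2.91, 4.34, 3.89 and 2.38 against 9.84, 12.5, 14.1 and 23.5 CPM (-2.14, adjusted p = 9.42e-05). Ret, a receptor tyrosine kinase, measured 1.41, 3.89, 3.79 and 4.03 against 9.11, 12.6, 10.8 and 19.4 CPM (-1.98, adjusted p = 0.0102; not called without flox/flox mouse 1 or control mouse 4, where adjusted p reached 0.0678). Blvrb, which reduces biliverdin (-1.36), and Susd3, a membrane protein (-1.40), fell. Slfn2, a Schlafen gene that keeps lymphocytes quiescent, measured 59.9, 83.6, 103 and 69.8 against 141, 213, 221 and 337 CPM (-1.53, adjusted p = 3.27e-07). Bcar3, an adaptor of integrin signalling, and Unc5a, a netrin receptor, fell too (-1.42 and -1.36). Gh measured 3.84, 3.54, 6.02 and 5.96 against 11.4, 10.4, 10.1 and 18.7 CPM (-1.38, adjusted p = 2.48e-04) and lies 7638 bases from Cd79b, which also fell. Without strand, reads of neighbouring genes cannot be told apart.

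Genes of the B cell receptor and its proximal signalling were lower. Of 29 tested genes 9 fell and 1 rose (median -0.16), against 2.75% and 3.38% of all genes. Cd79b, the signalling chain paired with Cd79a, measured 966, 902, 946 and 889.8 CPM in flox/flox and 1449.9, 1544, 1625 and 1953 CPM in flox/WT libraries (-0.83, SE 0.10, adjusted p = 1.17e-06). Cd79a, in which the recombinase sits in all 8 mice, measured 492, 477, 439 and 461 against 711, 690.4, 727 and 693 CPM (-0.59, adjusted p = 7.71e-04). The groups did not overlap in either, while the pan-lymphocyte gene Ptprc (-0.03), the heat-stable antigen Cd24a (0.06) and Ebf1 (-0.17) did not pass. Among markers of other cells, changes were positive in 13 of 14 T cell, 12 of 12 natural killer, 13 of 14 erythroid and 13 of 14 plasmacytoid dendritic markers. The same held for 7 of 8 basophil and mast and 10 of 11 stem and progenitor markers. In myeloid markers 10 of 18 were positive, in plasma cell markers 3 of 9 and in stroma and endothelium markers 3 of 8. The part of these markers in the falls was not tested. The Src family kinases moved in different directions, with Blk at -0.90 and Lyn at -0.50 lower and Fyn at 0.50 higher (adjusted p = 3.79e-06, 0.00442 and 0.00595). The inhibitory receptor Fcgr2b (-0.93) and the complement receptor Cr2 (-1.13) fell, Cr2 from only 3.43 ± 1.38 CPM and with a call that was lost in 3 other fits (adjusted p up to 0.163, with limma-voom). Syk and Prkcb passed by a small margin (-0.49 and -0.42, adjusted p = 0.0463 and 0.0448). Syk was not called without any 1 flox/flox mouse or control mouse 1, 2 or 4, where adjusted p reached 0.143, and Prkcb was not called without any 1 flox/flox mouse or control mouse 1 or 2, where adjusted p reached 0.152. Btk (-0.29), Blnk (-0.15) and Plcg2 (0.11) did not pass. The immunoglobulin genes Ighm and Ighd were not analysed here.

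Surface genes of later B cells were lower too. Of 21 tested genes 8 fell and 2 rose (median -0.35). Rises numbered 1 without flox/flox mouse 2 or 3 or control mouse 1 or 2. Ms4a1, which encodes CD20, measured 60.5, 30.3, 47.5 and 28.1 CPM in flox/flox and 159, 102, 134 and 176 CPM in flox/WT libraries (-1.78, SE 0.19, adjusted p = 7.30e-08). Cd40, the receptor for T cell help, measured 9.37, 17.0, 11.3 and 7.61 against 20.5, 22.0, 24.0 and 32.1 CPM (-1.12, adjusted p = 6.30e-05), and Cd38 measured 132, 205, 223 and 194 against 285, 335, 291 and 328 CPM (-0.72, adjusted p = 7.96e-04). Fcer2a, which encodes CD23 (-1.27), Cd69 (-0.998), Ccr7 (-0.82) and Cd55 (-0.66) fell. Ltb, a lymphotoxin chain, went up from 47.2, 37.3, 47.1 and 49.97 to 117, 110.4, 81.8 and 78.6 CPM (1.10, adjusted p = 1.50e-06). The BAFF receptor Tnfrsf13c (-0.26), Cd22 (-0.26) and Cd93 (0.00) did not pass.

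Genes of antigen presentation were lower in part, among them their regulator. Of 15 tested genes 5 fell, 0 rose and 14 had a negative change (median -0.25). Ciita, the transactivator of class II genes, measured 23.2, 20.6, 23.4 and 19.3 against 48.9, 41.3, 34.0 and 45.6 CPM (-0.97, SE 0.17, adjusted p = 2.84e-04). Cd83, which stabilises class II at the surface, fell by 1.19 on the log2 scale. The invariant chain Cd74 (-0.54), H2-Eb1 (-0.53) and H2-DMb2 (-0.58) passed by a small margin, and H2-Aa (-0.36) and H2-Ab1 (-0.07) did not pass. Among falls the count was 2 without flox/flox mouse 1 or 4 or control mouse 1 or 4 and 3 without control mouse 3.

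In cytokine signalling the largest change was in a feedback inhibitor. Socs1, which blocks JAK kinases downstream of interleukin 7 and interferons, measured 11.4, 17.4, 14.0 and 13.0 CPM in flox/flox and 34.2, 45.8, 36.9 and 50.8 CPM in flox/WT libraries (-1.59, SE 0.24, adjusted p = 2.62e-05). Jak3, the kinase of the common gamma chain, measured 109.9, 94.5, 80.0 and 108 against 63.8, 43.7, 55.2 and 41.9 CPM (0.94, adjusted p = 1.88e-04). The receptor chains Il7r (-0.15) and Il2rg (-0.15) and the other feedback genes Cish (0.63), Socs2 (0.56) and Socs3 (0.27) did not pass. Il2ra (CD25), which marks pre-B cells, measured 56.6, 53.4, 65.5 and 53.7 against 128, 135, 76.4 and 129 CPM (-1.03, adjusted p = 0.0172; not called without flox/flox mouse 2 or 4 or control mouse 2 or 4, where adjusted p reached 0.0604), and Il10ra measured -0.64 (adjusted p = 0.0166; not called without flox/flox mouse 4 or control mouse 4, where adjusted p reached 0.0808). Of 23 tested genes 1 rose and 3 fell (median 0.13), against 3.38% higher and 2.75% lower over all genes. The number of falls was 1 without flox/flox mouse 4 or control mouse 4.

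Genes of the small pre-B stage were lower, and genes of the pro-B stage mostly had positive changes that did not pass. The sort holds pro-B and pre-B cells in a share the labels do not give. Of 20 small pre-B genes 8 fell and 1 rose (median -0.36), and of 20 pro-B genes 16 had a positive change but 0 passed edgeR's test (median 0.35). For the pro-B genes there were 4 higher and 0 lower at an unadjusted p below 0.05, DESeq2 called 1 higher and 0 lower and limma-voom 3 and 0, and edgeR called 4 higher without flox/WT replicate 3 and 1 without flox/WT replicate 1. Cd2, an adhesion receptor that appears on pre-B cells, measured 30.7, 37.6, 35.2 and 29.3 against 76.7, 88.4, 86.8 and 116 CPM (-1.47, SE 0.12, adjusted p = 3.81e-10), and Klf2, which restrains pre-B cell growth, measured 114, 146, 139.6 and 118 against 216, 243, 205 and 286 CPM (-0.88, adjusted p = 1.91e-05). For the small pre-B genes, the 1 rise was Ccng2 (0.34; not called without any 1 flox/flox mouse or control mouse 1, 2 or 3, where adjusted p reached 0.143). Falls numbered 3 without control mouse 4, 4 without flox/flox mouse 1 or 4 or control mouse 2 and 5 without flox/flox mouse 2.

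The surrogate light chain genes were spread widely among the controls. Igll1 measured 686, 608, 502 and 657 CPM in flox/flox and 411, 312, 826 and 304 CPM in flox/WT libraries (0.40, adjusted p = 0.511), and Vpreb1 measured 479.8, 409, 358 and 459.8 against 295, 208, 662 and 215 CPM (0.31, adjusted p = 0.636). Replicate 3 was the highest control for both and above every flox/flox library, and it was also the lowest control for Il2ra. The other 3 controls lay below every flox/flox library for Igll1 and Vpreb1. Without flox/WT replicate 3, the log2 change of Igll1 was 0.84 (adjusted p = 0.0487) and that of Vpreb1 0.83 (adjusted p = 0.0170). Rag1, of the recombinase, measured 197, 155, 217 and 202 against 296, 273, 212 and 288 CPM (-0.47, adjusted p = 0.335), and Dntt measured 0.62 (adjusted p = 0.308). Of the 15 tested surrogate light chain and recombination genes 0 passed edgeR's test and 3 rose without flox/WT replicate 3, with 0 higher and 1 lower at an unadjusted p below 0.05, and DESeq2 called 0 higher and 0 lower and limma-voom 0 and 0. A different share of pro-B and pre-B cells in the sorts and a different level per cell cannot be told apart in these libraries.

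Most transcription factors of the lineage did not pass the test. Of 31 tested factors 5 fell, 0 rose and 24 had a negative change (median -0.21), against 2.75% lower and 3.38% higher over all genes. Among falls the count was 8 without control mouse 3. The number of rises was 2 without control mouse 1. Pou2f2 (OCT2), which acts late in B cells, measured 12.3, 12.0, 13.5 and 12.9 against 25.9, 27.2, 21.5 and 26.2 CPM (-0.99, SE 0.25, adjusted p = 0.0129, but 0.0693 with limma-voom). Tcf12 (HEB), an E protein, measured 128, 153, 158 and 156 against 259, 292, 199 and 261 CPM (-0.76, adjusted p = 4.22e-05), and Spi1 (PU.1) measured 74.3, 70.5, 61.7 and 63.9 against 97.1, 103, 80.1 and 92.7 CPM (-0.46, adjusted p = 0.00451). Ikzf3 (Aiolos) measured -0.43 (adjusted p = 0.0171; not called without flox/flox mouse 1 or control mouse 4, where adjusted p reached 0.0944). The founding factors Ebf1 (-0.17), Pax5 (-0.37), Tcf3 (-0.28), Foxo1 (-0.10) and Ikzf1 (-0.33) did not pass.

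**Figure D4:**
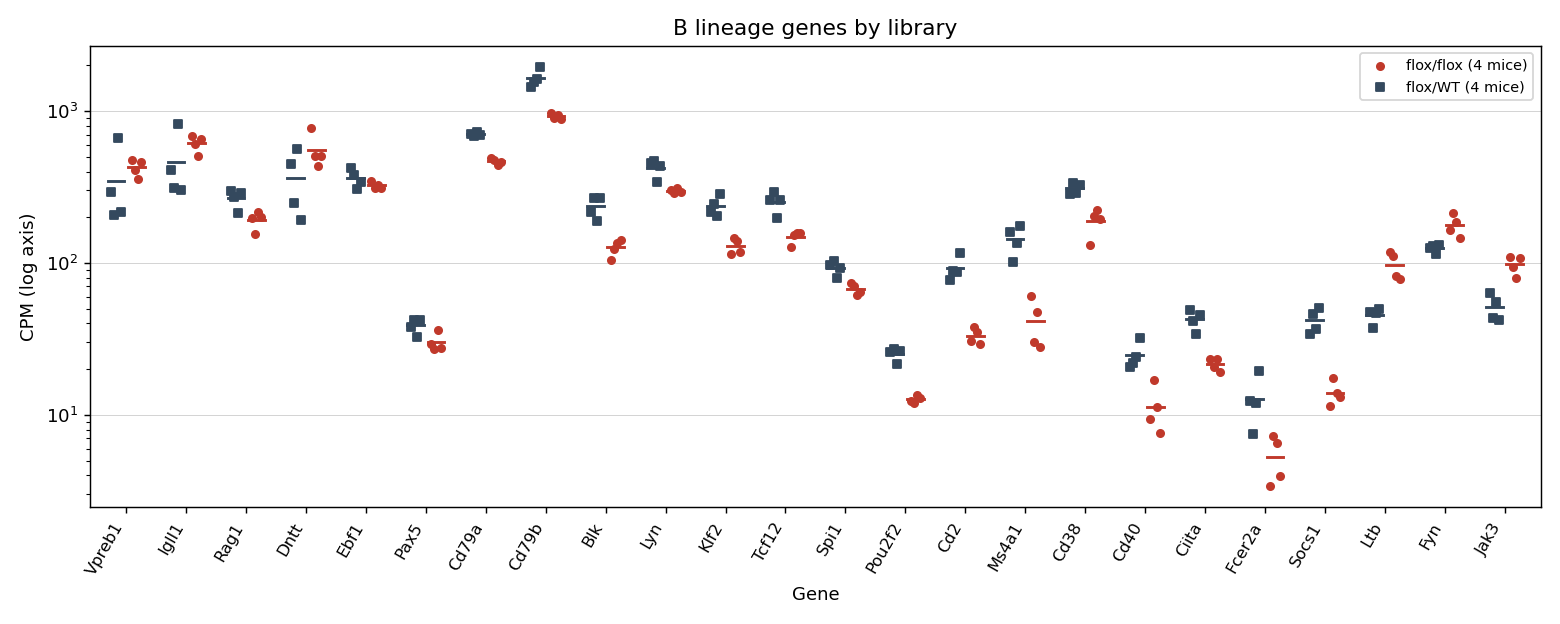
CPM per library on a log axis for B lineage genes, red circles for the 4 flox/flox and dark squares for the 4 flox/WT mice, with a bar at each group mean. The genes from Cd79a to Socs1 are separated downward in flox/flox mice and Ltb, Fyn and Jak3 upward, while Vpreb1, Igll1, Rag1, Dntt, Ebf1 and Pax5 overlap.

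Among trafficking genes, 4 of 23 rose and 3 fell (median 0.12), against 3.38% higher and 2.75% lower over all genes. Rgs1, which dampens chemokine receptors, measured 12.4, 12.9, 13.3 and 9.26 against 1.01, 0.847, 3.59 and 2.52 CPM (2.59, SE 0.51, adjusted p = 0.00109), and Itgb1, the beta chain of VLA-4, measured 193, 205, 202 and 188 against 138, 128, 130.4 and 104 CPM (0.66, adjusted p = 0.00205). Its alpha chain Itga4 measured 0.09 (adjusted p = 0.838). Itgb7 (0.43) was also among the rises, and Ccr7, Rgs2 (-0.56) and Icam2 (-0.40) the falls. Rises numbered 2 without flox/flox mouse 2 or 3 or control mouse 2. Among falls the count was 1 without flox/flox mouse 1 or 4 or control mouse 4.

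Genes of the dividing cell did not differ detectably between the genotypes. Of 25 S phase and 26 mitosis genes 0 passed edgeR's test in either direction, also when any 1 library was left out or with DESeq2 or limma-voom, and at an unadjusted p below 0.05 there were 0 higher and 1 lower for S phase and 0 higher and 0 lower for mitosis, with medians of 0.09 and 0.00 and ranges of -0.34 to 0.35 and -0.28 to 0.23. Mki67, the proliferation antigen, measured 377, 325, 413 and 434 CPM in flox/flox and 514, 513, 249 and 286 CPM in flox/WT libraries (-0.01, SE 0.45, adjusted p = 0.993). In the list of G1 control, 3 of 26 tested genes rose and 2 fell, against 3.38% higher and 2.75% lower over all genes. The number of rises was 5 without flox/flox mouse 3. Myc measured 108, 65.2, 75.5 and 86.7 against 65.0, 52.4, 34.8 and 21.4 CPM (0.95, adjusted p = 0.00718, but 0.0665 with the proBpreB libraries alone) and its antagonist Mxi1 136, 131, 139 and 137 against 70.01, 65.6, 57.1 and 62.8 CPM (1.09, adjusted p = 1.46e-08). Cyclin D2 (Ccnd2) rose by 0.82 (adjusted p = 0.00384), and cyclin D3 (Ccnd3), the main D cyclin of pre-B cells, measured 0.24 (adjusted p = 0.523). The falls were Cdkn2d (-0.38; not called without any 1 flox/flox mouse or control mouse 2, 3 or 4, where adjusted p reached 0.107) and Mxd4 (-0.44; not called without any 1 flox/flox mouse or control mouse 1, 2 or 4, where adjusted p reached 0.160). Of 24 cell death genes 1 rose, against 3.38% of all genes. The rise was that of Bcl2l11 (BIM), by 0.46 (adjusted p = 0.0369). Bcl2l11 was not called without flox/flox mouse 3 or 4 or control mouse 3 or 4, where adjusted p reached 0.132. Mcl1 (-0.26), Bcl2 (0.41) and Bax (0.03) did not pass.

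Replication-dependent histone genes were looked up after Hist1h2bh and Hist1h3c appeared among the largest falls. All 64 tested Hist genes had a negative change (median -0.73), and 11 passed. The summed level was 6330 to 10466 CPM in flox/flox and 9835 to 14498 CPM in flox/WT libraries, so the groups overlapped. Between 4 and 16 passed when 1 library was left out. Hist1h2bh measured 2.81, 1.33, 3.15 and 1.83 against 7.54, 13.9, 15.8 and 5.66 CPM (-2.23, adjusted p = 7.46e-04), and Hist1h3c measured -1.42 (adjusted p = 0.0288; not called without any 1 flox/flox mouse or control mouse 2, 3 or 4, where adjusted p reached 0.104). Many of these genes are near-identical copies, so their counts are uncertain.

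Calls in stress and housekeeping lists stand beside 3.38% higher and 2.75% lower over all tested genes. Of 21 early response genes 4 fell, Fos, Jund, Zfp36 and Btg2. Jund measured 199, 251, 198 and 210.1 against 303, 377, 299.9 and 441 CPM (-0.73, adjusted p = 0.00161) and Zfp36, which destabilises cytokine transcripts, 100.4, 94.2, 105 and 94.2 against 145, 149, 122 and 183 CPM (-0.61, adjusted p = 0.00258). Fos measured 4.22, 2.21, 3.89 and 2.93 against 6.26, 7.40, 4.88 and 20.7 CPM, with replicate 4 of the controls standing apart (-1.56, adjusted p = 0.0483; not called without any 1 flox/flox mouse or control mouse 2 or 4, where adjusted p reached 0.331). Falls numbered 2 without flox/flox mouse 1, 2 or 4 or control mouse 2 or 4. Among 25 interferon genes Gbp3 fell by 0.88 on the log2 scale and 0 rose (2 fell without control mouse 3 and 1 rose without control mouse 4), and among 20 cholesterol genes Lss rose by 0.84 and 0 fell (2 rose without flox/flox mouse 2 or control mouse 1 or 3).

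Transcripts on the marker lists of other marrow cells were present in the sort, and some moved with genotype. Which cells they came from was not tested. The 14 tested T cell markers summed to 181 to 252 CPM in flox/flox and 125 to 148 CPM in flox/WT libraries. Zap70 (1.37), Lck (0.54) and Lat (1.30) passed, and Lat was not called without flox/flox mouse 1 or 4 or control mouse 2 or 4, where adjusted p reached 0.0931. The receptor chain Cd3e measured 5.86 ± 1.90 and 3.50 ± 0.433 CPM and did not pass (0.74, adjusted p = 0.320), and Bcl11b, a defining T cell factor, measured 1.28 ± 0.233 and 1.26 ± 0.724 CPM. No tested defining marker of these lists was at 0 in both groups. The sums cover tested markers only. They lack Col1a1, Col3a1 and Pdgfrb of stroma, Procr and Mecom of stem cells and Ahsp of erythroid cells. The 12 natural killer markers summed to 319 to 487 against 239 to 342 CPM, all 12 were positive and 0 passed edgeR's test (4 higher and 0 lower at an unadjusted p below 0.05; DESeq2 called 0 higher and 0 lower and limma-voom 3 and 0). Erythroid markers summed to 2230 to 3963 against 1669 to 3569 CPM, myeloid markers to 4511 to 5647 against 4345 to 6348 CPM, plasmacytoid dendritic markers to 2065 to 2819 against 2094 to 2856 CPM, basophil and mast markers to 49.4 to 65.2 against 37.6 to 57.6 CPM, stem and progenitor markers to 236 to 314 against 227 to 302 CPM, and stroma and endothelium markers to 127 to 186 against 156 to 206 CPM. Of these 6 lists edgeR called 1 gene, Ly6d, which B cell precursors also express and which fell by 0.87 on the log2 scale. At an unadjusted p below 0.05 there were 2 higher and 0 lower for erythroid, 0 higher and 0 lower for myeloid and 0 higher and 0 lower for basophil markers. By the same measure there were 1 higher and 0 lower for stem and 0 higher and 3 lower for stroma markers. DESeq2 called 1 erythroid and 1 stem marker higher, and limma-voom called 1 stem marker higher. Plasma cell markers summed to 824 to 890.0 against 933 to 1122 CPM, and Sdc1, which pro-B and pre-B cells also express, fell by 0.84 on the log2 scale. The 15 B lineage markers summed to 7104 to 7879 CPM in flox/flox and 8412 to 9467 CPM in flox/WT libraries, with no overlap, and Cd79a and Cd79b were among those that passed.

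The genotype effect in proBpreB cells was also set against that in the other 2 populations of the same mice. It differed from immature cells for 1395 of 12850 genes (10.9%), 789 more positive and 606 more negative in proBpreB cells, and from mature cells for 393 genes (3.06%), 101 more positive and 292 more negative. Immature and mature sorts held other amounts of transcripts on the marker lists. In immature and mature libraries, summed erythroid markers lay at 2557 to 19075 and 3837 to 21228 and myeloid markers at 9052 to 16972 and 12387 to 21844 CPM, while T cell markers lay at 39.2 to 60.5 and 50.2 to 115 and natural killer markers at 25.8 to 58.5 and 42.9 to 105 CPM, both below the proBpreB ranges given above. The part of these in the differences was not tested. Several HIF genes rose less in proBpreB cells. Vegfa rose by 2.40 here, by 5.53 in immature and by 5.48 in mature cells (differences -3.12 and -3.08, adjusted p = 2.55e-06 and 3.77e-06). Its control level was 17.4 ± 4.40 CPM in proBpreB against 2.15 and 2.94 CPM in immature and mature cells, and its flox/flox level 91.8 ± 8.41 against 99.0 and 128 CPM. Egln3 rose by 4.45, 6.44 and 6.95 in the 3 populations, Plod2 by 4.63, 6.89 and 8.81, and Ndrg1 by 1.41, 2.93 and 4.44, and for each of the 3 genes both differences from the proBpreB effect passed. Aldoc and Bnip3 differed from immature cells (differences -2.25 and -1.32) and not detectably from mature cells (-0.10 and -0.23, adjusted p = 0.899 and 0.584). Pfkfb3 rose by 1.48, 2.63 and 3.10 (both differences passed). Smtnl2, a smoothelin-like gene, measured 0.64 in proBpreB cells and rose by 3.76 and 4.55 in the others.

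Other metabolic genes rose as much or more in proBpreB cells. Aldoa rose by 3.46 against 2.83 and 2.42 (differences 0.64 and 1.04, adjusted p = 0.00620 and 1.13e-04), and Ankrd37 by 4.73 against 2.82 in mature cells (difference 1.90, adjusted p = 6.28e-06). For Slc16a3 the differences were -0.19 (SE 0.21) and 0.51 (SE 0.21) and neither passed. Vhl fell less in proBpreB than in immature cells (difference 1.34, SE 0.33, adjusted p = 0.00838), and the difference from mature cells did not pass (0.62, adjusted p = 0.394).

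Effects on division genes differed mainly from those in immature cells. Of 25 S phase genes 24 and of 26 mitosis genes 25 differed from immature cells, where their median changes were -1.15 and -1.79 against 0.09 and 0.00 in proBpreB cells. From mature cells 1 S phase and 4 mitosis genes differed, with median changes of 0.34 and 0.76 there. Esco2, a cohesin acetyltransferase, measured -0.05 in proBpreB cells and -2.11 in immature cells. Casc5 and Cdca3, of mitosis, and 2810417H13Rik, a PCNA-binding factor, followed the same order (differences 2.17, 1.78 and 1.86). Atp1b1 and Tmem26 had smaller or opposite effects in proBpreB cells (-0.36 and -0.93) than in mature cells (1.47 and 1.49). Falls of B cell genes were in part larger in proBpreB cells. The differences from immature and mature cells were -1.77 and -1.40 for Ms4a1, -1.33 and -1.39 for Cd2, and -1.25 and -0.99 for Susd3, and all 6 passed.

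**Figure D5:**
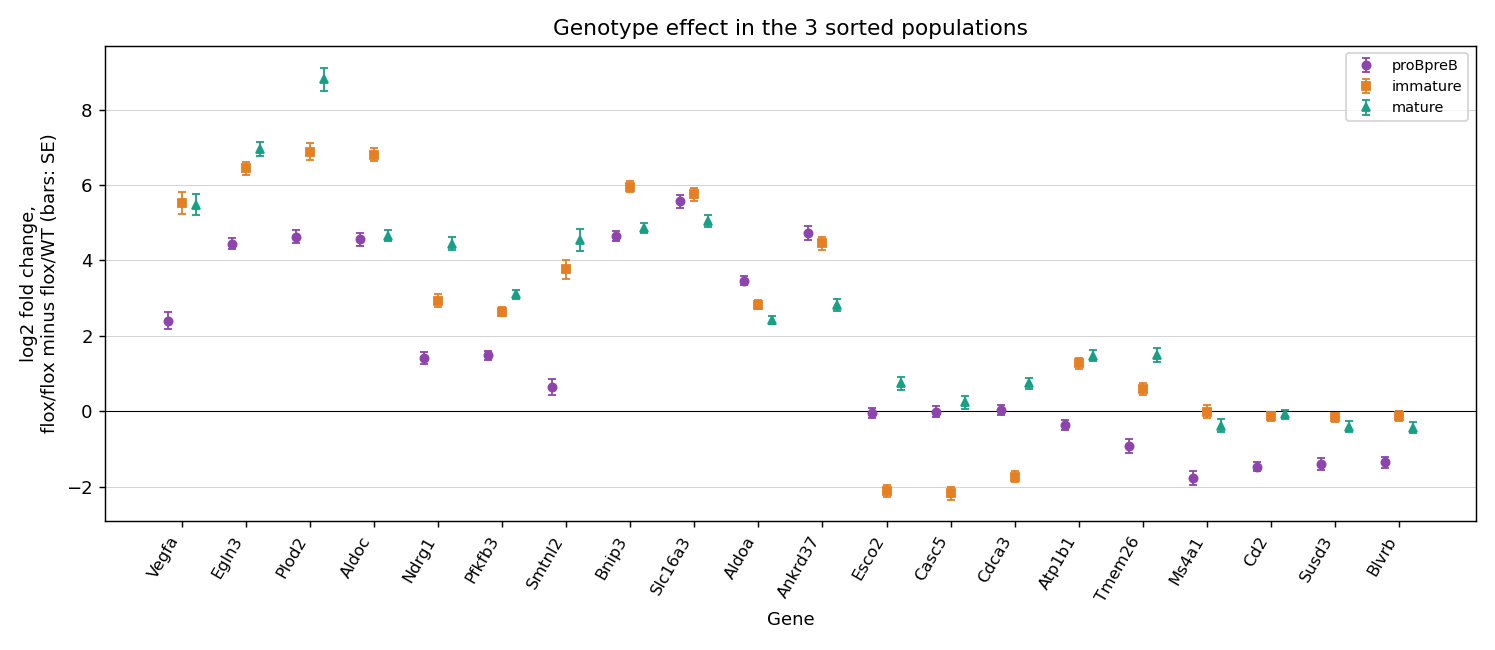
Log2 fold change between flox/flox and flox/WT mice with its SE for 20 genes in proBpreB (circles), immature (squares) and mature (triangles) cells. Vegfa, Egln3, Plod2 and Ndrg1 lie lowest in proBpreB cells, Esco2, Casc5 and Cdca3 are near 0 in proBpreB and below -1 in immature cells, and Ms4a1, Cd2, Susd3 and Blvrb are lowest in proBpreB cells.

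Genes near Vhl on chromosome 6 can differ between mice with different flox alleles through linked strain sequence. Within 10 Mb on either side of Vhl 8 of 103 tested genes were called (7.77%), 4 higher and 4 lower, against 6.13% of all tested genes, and within 5 Mb 4 of 59 (6.78%). Ret, Bhlhe40 and Slc2a3 are among the 8.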

How the data were processed

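RNA of sorted bone marrow cells was extracted with a micro kit and made into libraries with the SMARTer Universal Low Input kit, per the labels' protocols. The deposited table holds raw read counts per gene, made by the authors; the submitters' processing notes name CASAVA, FastQC, Trim Galore, HISAT2, featureCounts, DESeq2 and the build mm10, with no versions or roles, and no source used here states strand use. Reads carry no molecular identifiers, so PCR copies are counted. Gene positions and promoters came from RefSeq (GRCm38.p6). Positions were matched by symbol or synonym for 12794 of 12850 tested genes, and promoters by symbol for 9706.

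All 24 libraries (6 groups of 4) entered 1 fit in edgeR 4.0.16 (R 4.3.3; TMM scaling, filterByExpr, robust quasi-likelihood, 18 residual degrees of freedom), which tested 12850 of 24421 genes. Contrasts were the genotype effect in proBpreB cells and its difference from that in immature and in mature cells, with Benjamini-Hochberg adjustment and a threshold of 0.05. CPM values use the same scaling. Alternatives were RLE scaling, no filter, a filter of 10 CPM in 4 libraries, the compared populations alone, DESeq2 1.42.0, limma-voom (limma 3.58.1), a replicate block (the mouse, for the differences), each library left out, and sex as a covariate, added after seeing the data. Where a library is left out, the others set the spread. The fit was tested on simulated counts.

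Named genes are Vhl, the 15 largest rises and the 15 largest falls (called, mean log2 CPM of at least 2, no overlap between genotypes, no clone symbols), members of the gene lists, and the 8 smallest adjusted p-values for each difference. Other genes are named as picked after their values were seen. The comparison and the lists were chosen with earlier results of these data known. Of the 12 pairs of replicates within a genotype in proBpreB cells, none agreed within sampling noise (chi-square per degree of freedom 6.06 to 33.3). Ighm, Ighd and a few other list members were not analysed here, and a few genes that enter the counts are not reported here by name.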

Additional observations from a re-analysis of the deposited data

Results flagged for a closer look

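Among the 226 named genes, 1 of the 4 libraries of a group stood far from the other 3 (its gap to the nearest, as a share of the group's range, passed Dixon's 95% critical value) in 28 of 452 groups. Chance flags about 1 in 20 groups. By CPM, flox/WT replicate 2 stood above the other 3 libraries of its group for Pink1 (129.7) and Sesn2 (13.7). By CPM, flox/WT replicate 3 stood above the other 3 libraries of its group for Esco2 (138) and below them for Il2ra (76.4). By CPM, flox/WT replicate 4 stood above the other 3 libraries of its group for Ccr7 (150.2), Fos (20.7), Gh (18.7) and Tmem26 (17.5). By CPM, flox/flox replicate 1 stood above the other 3 libraries of its group for Dlat (65.0), Lat (14.9), Pdha1 (119) and Vegfa (104) and below them for Kdm3a (269), Prelid2 (34.0), Ret (1.41) and Tcf12 (128). By CPM, flox/flox replicate 3 stood below the other 3 libraries of its group for Galk1 (229). By CPM, flox/flox replicate 4 stood above the other 3 libraries of its group for Cdca3 (166) and Slc16a1 (419) and below them for Fundc1 (49.7) and Il2rg (101). Where controls held only single counts, 1 library also stood apart, at a CPM of 0.0921 for Artn (flox/WT replicate 3), 0.920 for Epas1 (flox/WT replicate 1), 0.368 for Hif3a (flox/WT replicate 1), 0.0770 for Mgarp (flox/WT replicate 2), 0 for Ndufa4l2 (flox/WT replicate 2), 0.0921 for Stc2 (flox/WT replicate 3) and 0.276 for Vldlr (flox/WT replicate 3). Leaving out the library concerned ended the call of Fos, Ret and Lat among the called genes, and the adjusted p-values stand beside these genes above. Il2ra kept its call without flox/WT replicate 3.

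The genotype effect in proBpreB cells differed from that of another population, by the interaction contrast in edgeR at an adjusted p below 0.05, for a number of the 41 genes named by size of change or difference. The log2 differences, proBpreB minus immature and proBpreB minus mature, were both negative at -1.63 and -1.84 for Atp1b1, -1.23 and -0.92 for Blvrb, -1.33 and -1.39 for Cd2, -1.995 and -2.50 for Egln3, -1.16 and -1.75 for Gh, -1.77 and -1.40 for Ms4a1, -1.52 and -3.03 for Ndrg1, -1.15 and -1.62 for Pfkfb3 and -2.26 and -4.18 for Plod2. They were also both negative at -3.12 and -3.90 for Smtnl2, -1.25 and -0.99 for Susd3, -1.52 and -2.42 for Tmem26 and -3.12 and -3.08 for Vegfa. Both were positive at 0.64 and 1.04 for Aldoa. They had opposite signs, positive against immature and negative against mature cells, at 1.86 and -1.22 for 2810417H13Rik, 1.78 and -0.70 for Cdca3 and 2.06 and -0.79 for Esco2. Against immature cells alone the difference was -2.25 for Aldoc, -1.32 for Bnip3, 2.17 for Casc5, 2.26 for Ccdc40, -2.65 for Hist1h2bh, -1.497 for Pde4c, -1.19 for Socs1 and 1.34 for Vhl. Against mature cells alone it was 1.90 for Ankrd37, -0.79 for Bcar3, -1.11 for Prelid2 and -1.16 for Slfn2. Gh lies beside Cd79b, as described above. Over all 226 named genes, 77 differed from immature and 51 from mature cells.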

How the results depend on the processing

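In proBpreB cells, Vhl stayed lower with an adjusted p below 0.05 in every alternative (log2 change -1.36 to -1.30 over the other settings, -1.58 to -1.22 when 1 library was left out). Over the other settings, apart from the replicate block, the rises numbered 394 to 574 and the falls 317 to 511. When 1 of the 8 libraries was left out the rises numbered 312 to 459 and the falls 184 to 448. The cause was not tested. Genes whose effect differed from immature cells numbered 1204 to 1694 (990.0 to 1609 with 1 library left out). Those that differed from mature cells numbered 355 to 496 (299 to 451 with 1 library left out), except with DESeq2, which called 599; the cause was not tested. The share of higher genes with a core word in the promoter was 46.1% with ACGTG alone, since fewer words count. Near Vhl the 5 Mb window gave 6.78% against 7.77%. The replicate numbers did not pair the mice across genotypes (correlations of same-numbered deviations 0.378, -0.289, -0.129 and -0.287; only number 1 correlated best with its own number), so the replicate block is given here alone: with it 483 genes rose, 303 fell, and Vhl changed by -1.36 (adjusted p = 0.00119). For the differences between populations the block was the mouse, which gave 1 library of each population, and 1458 and 474 differences passed. Sex as a covariate, chosen after seeing the data, gave 483 rises and 388 falls. Of the 156 named genes with a call, 120 kept it in every setting, the replicate block included, and 0 of 225 reversed a called change.

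Depth limits the lowest genes: 3 counts in a library are 0.231 to 0.281 CPM, and genes with at most 3 counts over the 4 control libraries have folds given as bounds or with intervals.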

Other observations

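The palindrome CACGTG, which clock and MYC family factors bind as an E-box and which contains the HIF core, was held by 48 of 321 promoters of higher genes (15.0%, 95% exact binomial interval 11.2 to 19.3), by 6.202% of lower genes (3.59 to 9.88) and by 10.3% of all tested genes with a promoter entry. Among the 77 promoters of genes that rose by more than 2 on the log2 scale it was held by 6 (7.79%, interval 2.91 to 16.2). The core word ACGTG or GCGTG was held by 54 of those 77 (70.1%), close to the 71.7% of all higher genes. The intervals cover counting error only, and no test was made on these shares.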
